A study of Rattus norvegicus with 48 samples.

Results

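Cyclins and mitotic genes were examined in cerebral endothelial cells (CECs) of fed and fasted rats. The 10 genes were listed by their role and not by their values. They are the D-type cyclins Ccnd1, Ccnd2 and Ccnd3, and the mitotic genes Ccna2, Ccnb1, Ccnb2, Aurka, Birc5, Bub1b and Anln. Symbols were paired with Ensembl identifiers through the study's list of genes, which gave an identifier for 7 of the 10, the 3 D-type cyclins and 4 mitotic genes. Ccnb2, Bub1b and Anln were paired with none and were not analysed here. The 7 genes are among 13050 features that had at least 1 read in each of 12 samples, of 32624 features listed. The study's list holds expressed genes, so the 7 do not stand for all 10.

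The CECs came from the cortex of male Wistar-Han rats. AL rats had free access to food, and F1, F2 and F3 rats were fasted for 1, 2 and 3 days with free access to water. Each isolation used 4 rats, and tissue of 2 cortices was pooled before digestion, microglia were depleted by CD11b, and CECs were then selected by CD31. Each group holds 3 samples from independent experiments, named here i, j and k, and the 4 technical replicates of each were summed.

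A D-type cyclin binds CDK4 or CDK6, and the complex phosphorylates the retinoblastoma protein as a cell leaves quiescence and passes through G1. Cyclin A, cyclin B and the mitotic kinases and their partners are made later, in S phase, G2 and mitosis, and are low in cells that do not divide. The endothelium of the adult brain is known as a tissue with very little cell division. The question was how far D-type cyclins and mitotic genes are expressed in it and whether fasting changes them.

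Samples held 20718644 to 25960874 reads assigned to genes. The paper reports CECs of high purity by CD31 staining in flow cytometry. It found transcripts of glial, neuronal and mural cells to be very low or not detectable. Pecam1, the gene of the CD31 protein used for the selection, was at 34031 ± 2262 normalized read counts (SD, n = 12). A normalized read count is a count scaled to the mean library size after TMM normalization. The 6 of 9 listed endothelial markers that had an identifier, Pecam1 among them, summed to between 258738 and 316541. The 4 of 8 listed pericyte and smooth muscle markers that had an identifier summed to between 2483 and 6871 normalized read counts. The 2 of 5 astrocyte markers, Aldoc and Atp1b2, summed to between 2144 and 3793, and the 6 of 7 microglial markers to between 56.7 and 133.6. The astrocyte markers Aqp4, Gfap and Aldh1l1 had no identifier. Whether the reads of Aldoc and Atp1b2 came from astrocytes was not tested. The study's list holds only genes with a read in each sample, so markers paired through it could not be at 0. Markers without a read in some sample were left out by this, so the sums do not measure how many other cells were present. In bulk RNA the reads of a mitotic gene in CECs and in other cells cannot be told apart. Fewer dividing cells and less RNA per dividing cell cannot be told apart either.

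The promoters of 1 D-type cyclin and 2 mitotic genes are shown because mitotic genes are known to share 2 short elements near their start, the CCAAT box and the cell cycle homology region (CHR). RefSeq gave a window of 250 bases before and 50 after the start, in the build GRCr8, for 4 of the 7 genes (Ccnd3, Ccnb1, Aurka and Birc5). Ccnd1, Ccnd2 and Ccna2 had no entry. The box was searched as CCAAT and, for the other strand, as ATTGG. The CHR was searched as TTTGAA with its other strand TTCAAA, and as the palindrome TTCGAA. These letters are in capitals below, and no match of one element overlapped the other.
Ccnd3, chr9:20897826-20898125, minus strand: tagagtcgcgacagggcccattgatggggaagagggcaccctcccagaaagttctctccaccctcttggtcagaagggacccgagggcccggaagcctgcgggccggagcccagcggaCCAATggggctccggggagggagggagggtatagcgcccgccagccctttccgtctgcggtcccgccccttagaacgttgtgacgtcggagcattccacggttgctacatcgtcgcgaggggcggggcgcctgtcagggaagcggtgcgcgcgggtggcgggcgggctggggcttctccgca
Ccnb1, chr2:33655176-33655475, minus strand: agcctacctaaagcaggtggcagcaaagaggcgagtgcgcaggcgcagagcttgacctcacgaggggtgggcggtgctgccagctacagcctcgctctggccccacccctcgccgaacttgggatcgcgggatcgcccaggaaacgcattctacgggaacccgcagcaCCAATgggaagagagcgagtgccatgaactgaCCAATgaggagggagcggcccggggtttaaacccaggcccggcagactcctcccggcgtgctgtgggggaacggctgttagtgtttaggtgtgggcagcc
Birc5, chr10:103571896-103572195, plus strand: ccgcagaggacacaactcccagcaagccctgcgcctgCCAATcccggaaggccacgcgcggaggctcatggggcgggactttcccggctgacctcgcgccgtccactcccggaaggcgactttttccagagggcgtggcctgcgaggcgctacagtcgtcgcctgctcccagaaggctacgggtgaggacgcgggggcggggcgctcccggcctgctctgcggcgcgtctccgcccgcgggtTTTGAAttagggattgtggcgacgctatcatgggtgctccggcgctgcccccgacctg
The Ccnb1 window held 2 CCAAT sequences, which began 82 and 50 bases before the start, and no CHR. Birc5 held 1 CCAAT 213 bases before the start and 1 CHR 8 bases before it. Ccnd3 held 1 CCAAT 132 bases before its start and no CHR, and the Aurka window held neither. The annotated start of Aurka lies just before an ATG. Whether transcription starts there was not tested, so the Aurka window is not read as its promoter. Of 33465 promoter windows of this length, 37.5% held a CCAAT and 19.7% a CHR, so that a match in 1 window is common. A match describes letters and not a bound site.

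Reads of the D-type cyclins came mostly from Ccnd3. The 3 genes together had 4389 to 5469 reads per sample, of which Ccnd3 made up 91.1% to 95.4%, Ccnd1 2.38% to 5.23% and Ccnd2 1.75% to 3.65%. The 4 mitotic genes together had 62 to 113 reads per sample, or 2.67 to 4.56 per 1000000 assigned reads. Aurka had the most of these in every sample, Birc5 had 2 to 8 reads and Ccna2 had 2 to 9. Reads rise with transcript length, and lengths were not used here, so these shares of reads are not an order of expression between genes.

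**Figure D1:**
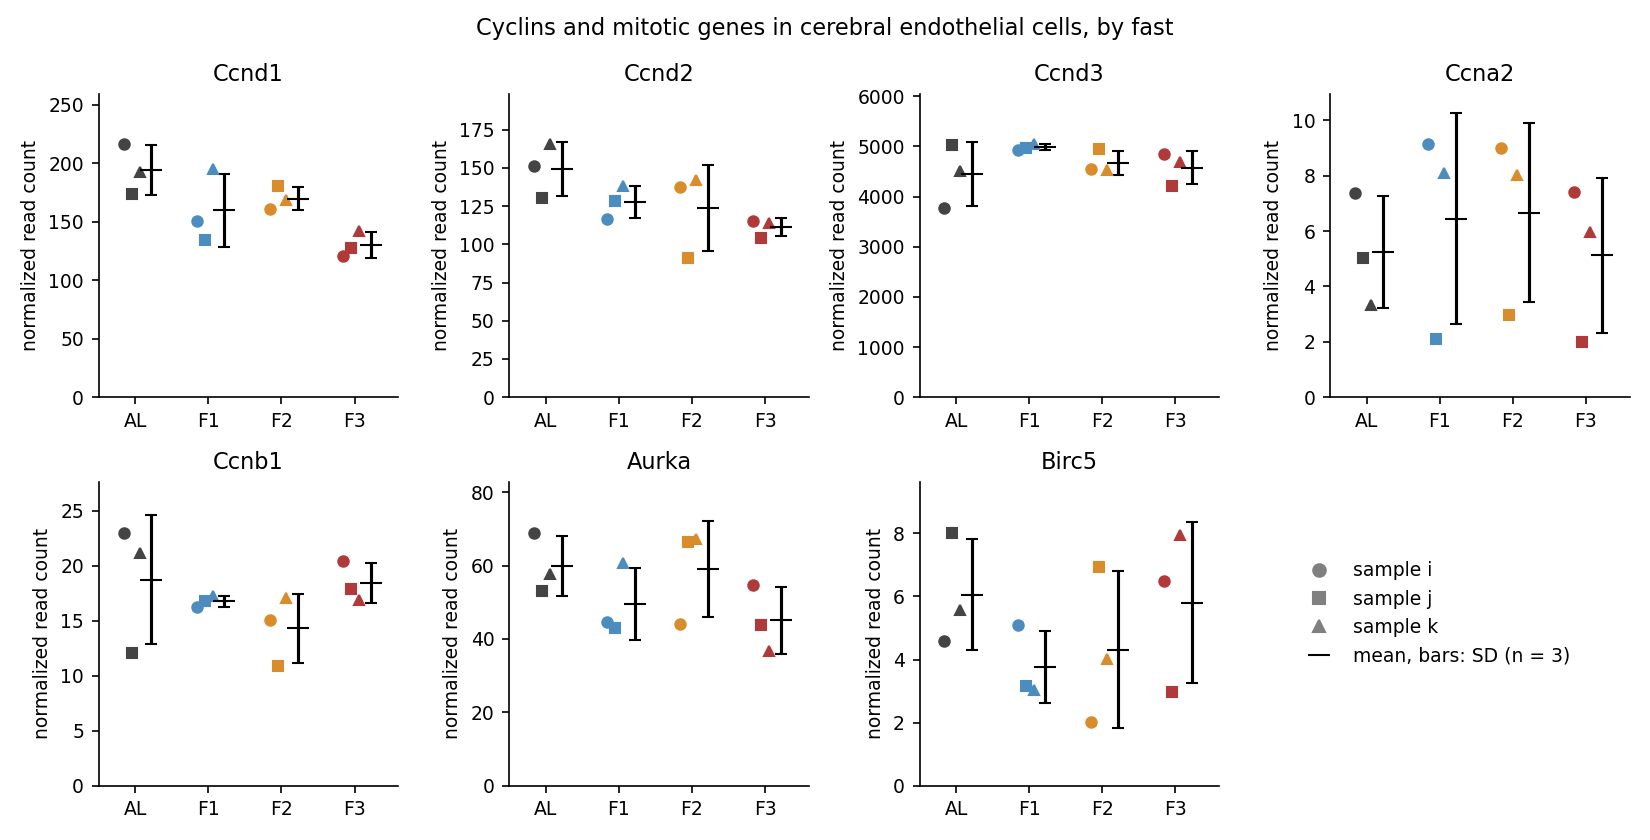
Normalized read count (y axis, linear from 0, a scale of its own in each panel) of the 7 genes in AL, F1, F2 and F3 rats; symbols are the samples i, j and k, and the black line with bars is the mean ± SD (n = 3). The 3 F3 samples of Ccnd1 sit between 120.7 and 142.0, all below the AL samples, whereas the groups overlap in every mitotic gene.

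Ccnd1 (ENSRNOG00000020918), which encodes cyclin D1, a cyclin known to be induced by growth factors, was lower in F3 than in AL rats. It had 216.2, 173.5 and 192.2 normalized read counts in AL samples i, j and k, 150.4, 134.5 and 194.7 in F1, 160.4, 180.3 and 168.4 in F2, and 120.7, 127.3 and 142.0 in F3. Every F3 sample was below every AL and every F2 sample, and F1 overlapped all other groups. The group means were 194.0 ± 21.4 in AL, 159.9 ± 31.2 in F1, 169.7 ± 10.03 in F2 and 130.0 ± 10.9 in F3 (SD, n = 3). The log2 fold change (LFC) of F3 against AL was -0.58 with an SE of 0.15, or 0.669 times the AL level (95% interval 0.535 to 0.838), and the adjusted p was 0.0236 by the quasi-likelihood test of edgeR, adjusted after Benjamini and Hochberg over all 13050 features.

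Ccnd1 was the 1 gene of the 7 that passed the threshold in this comparison, in which 12% of all features did. The LFC stayed between -0.66 and -0.49 with each sample left out in turn, but the call did not always hold. It was lost without AL sample i (LFC -0.49, adjusted p = 0.0993), AL sample k (-0.59, 0.0583), F3 sample i (-0.53, 0.102) or F3 sample j (-0.56, 0.0688), all by edgeR, and the adjusted p ranged from 0.00641 (DESeq2) to 0.102 over 23 alternative settings. The adjusted p of the joint test of the 4 groups was 0.0971 by edgeR, in which 9.98% of features and 0 of the 7 genes were called, 0.0489 by edgeR without F1 sample k and 0.0397 by DESeq2, which called 16% of features, and it reached 0.260 over the alternatives. The LFC of Ccnd1 was -0.28 (SE 0.15, edgeR adjusted p = 0.313) for F1 and -0.19 (SE 0.15, edgeR adjusted p = 0.629) for F2 against AL, and -0.39 (SE 0.15, edgeR adjusted p = 0.153) for F3 against F2. The AL sample with the highest Ccnd1, sample i, also had the highest Abcc9 of the AL samples, at 3560 normalized read counts of this pericyte gene against 2225 and 1509, while F3 sample i had 3605 and the lowest Ccnd1 of all samples. The part of mural cells in the Ccnd1 values was not tested.

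Ccnd2 (ENSRNOG00000057710), which encodes cyclin D2, moved in the same direction without passing the threshold. It had 150.9, 130.4 and 165.5 normalized read counts in AL, 116.9, 128.2 and 137.9 in F1, 137.3, 91.1 and 142.3 in F2, and 115.1, 104.4 and 114.2 in F3. The F3 samples were all below the AL samples, whereas F1 and F2 overlapped AL. Means were 149.0 ± 17.7 in AL and 111.2 ± 5.91 in F3 (SD, n = 3), with an LFC of -0.42, an SE of 0.17 and an adjusted p of 0.134 by edgeR. Without F2 sample j, the lowest of the F2 samples, the same LFC had an adjusted p of 0.0402 by edgeR. All groups share 1 estimate of the spread, and 2378 features in place of 1567 were then called in F3 against AL. What lowered the adjusted p of Ccnd2 was not tested. Over the 23 settings its adjusted p ranged from 0.0402 to 0.322.

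Ccnd3 (ENSRNOG00000050258), which encodes cyclin D3, had no detected change. It had 3768, 5038 and 4519 normalized read counts in AL, 4930, 4968 and 5046 in F1, 4552, 4951 and 4523 in F2, and 4840, 4206 and 4685 in F3. The AL samples spanned nearly the whole range of the 12, and all other groups overlapped them. The LFC against AL was 0.17 in F1, 0.07 in F2 and 0.04 in F3, each with an SE of 0.10 and with edgeR adjusted p-values of 0.358, 0.790 and 0.828. The 95% interval for F3 was 0.894 to 1.19 times the AL level, which leaves out a fall as large as the one fitted for Ccnd1. Within groups, the variance of Ccnd3 was 33.5 times that of counting alone, against 2.48 times for Ccnd1 and 2.42 times for Ccnd2, so that depth did not limit the precision for Ccnd3.

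**Figure D2:**
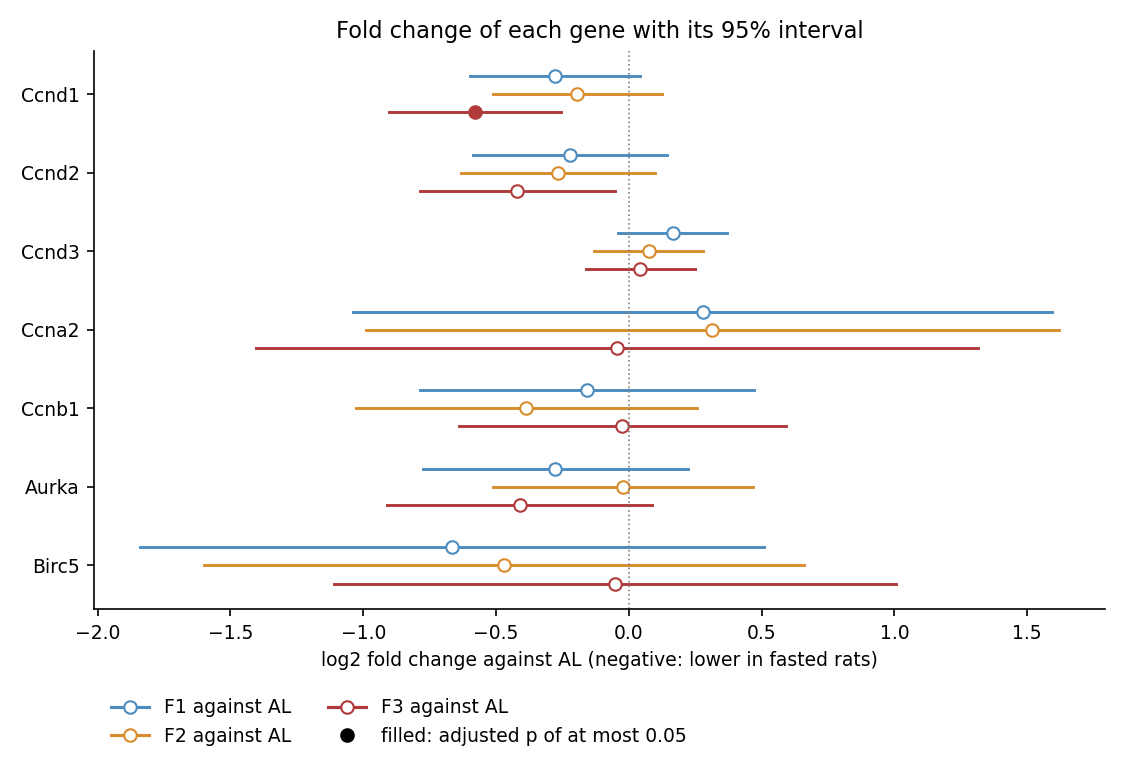
LFC of F1, F2 and F3 against AL (x axis, log2 scale, negative where lower in fasted rats) for the 7 genes (y axis), with lines for the 95% interval of the edgeR fit and filled points for an adjusted p of at most 0.05. One point is filled, Ccnd1 in F3, and the intervals of Ccna2 and Birc5 are the widest.

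The mitotic cyclins had low counts, 2 to 9 reads per sample for Ccna2 and 11 to 25 for Ccnb1. Ccna2 (ENSRNOG00000015423) encodes cyclin A2, which acts in S phase and at entry into mitosis. It had 8, 5 and 3 reads in AL, 9, 2 and 8 in F1, 9, 3 and 8 in F2, and 8, 2 and 6 in F3. The groups overlapped, and the lowest sample of each fasted group was sample j. Ccnb1 (ENSRNOG00000058539) encodes cyclin B1, the partner of CDK1 in mitosis. It had 25, 12 and 19 reads in AL, 16, 16 and 17 in F1, 15, 11 and 17 in F2, and 22, 18 and 17 in F3, and the AL samples alone spanned nearly the whole range.

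Aurka (ENSRNOG00000004479) encodes the Aurora A kinase of the centrosomes and spindle poles. It had 75, 53 and 52 reads in AL, 44, 41 and 60 in F1, 44, 67 and 67 in F2, and 59, 44 and 37 in F3. The F3 samples were low on average but overlapped AL, with means of 45.1 ± 9.08 against 60.0 ± 8.15 normalized read counts (SD, n = 3), an LFC of -0.41, an SE of 0.23 and an adjusted p of 0.295 by edgeR. Birc5 (ENSRNOG00000050819) encodes survivin, a subunit of the chromosomal passenger complex. It had 5, 8 and 5 reads in AL, 5, 3 and 3 in F1, 2, 7 and 4 in F2, and 7, 3 and 8 in F3, and all groups overlapped.

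No fasted group differed from AL in a mitotic gene beyond the spread of the samples. At this depth the intervals were wide. For F3 against AL the 95% interval was 0.378 to 2.48 times the AL level for Ccna2, 0.463 to 2.01 for Birc5, 0.641 to 1.51 for Ccnb1 and 0.532 to 1.06 for Aurka. A doubling of Ccnb1 or Aurka would lie outside these intervals, and a doubling of Ccna2 or Birc5 would not. The variance within groups was 0.686 times that of counting alone for Ccnb1, 0.856 times for Birc5, 1.52 times for Ccna2 and 1.96 times for Aurka, so that most of the scatter of the first 3 is of the size that counting gives.

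Over the 7 genes, edgeR called 0 in F1 against AL, where 6.57% of features were called, 0 in F2 against AL (0.920%), 0 in F2 against F1 (1.34%) and 0 in F3 against F2 (5.88%). At an unadjusted p under 0.05, 0, 0, 2, 0 and 1 of the 7 passed in these comparisons with AL (F1, F2, F3), in F2 against F1 and in F3 against F2, respectively, where 20.8%, 13%, 26%, 17.4% and 22.1% of all features did. DESeq2 called 0, 0, 1, 0 and 0 of the 7, against 9.51%, 2.75%, 14.4%, 4.72% and 9.41% of all features. It gave no adjusted p for Ccna2 and Birc5 in any comparison, nor for Ccnb1 in F2 against AL, so these could not be called there. No gene of the 7 had groups without overlap in F1 against AL, where 28.7% of all features did, or in F2 against AL (15.5%). In F3 against AL, 2 of the 7 did, Ccnd1 and Ccnd2, against 35.6% of all features. The counts among the 7 are thus near those among all genes or below them.

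**Figure D3:**
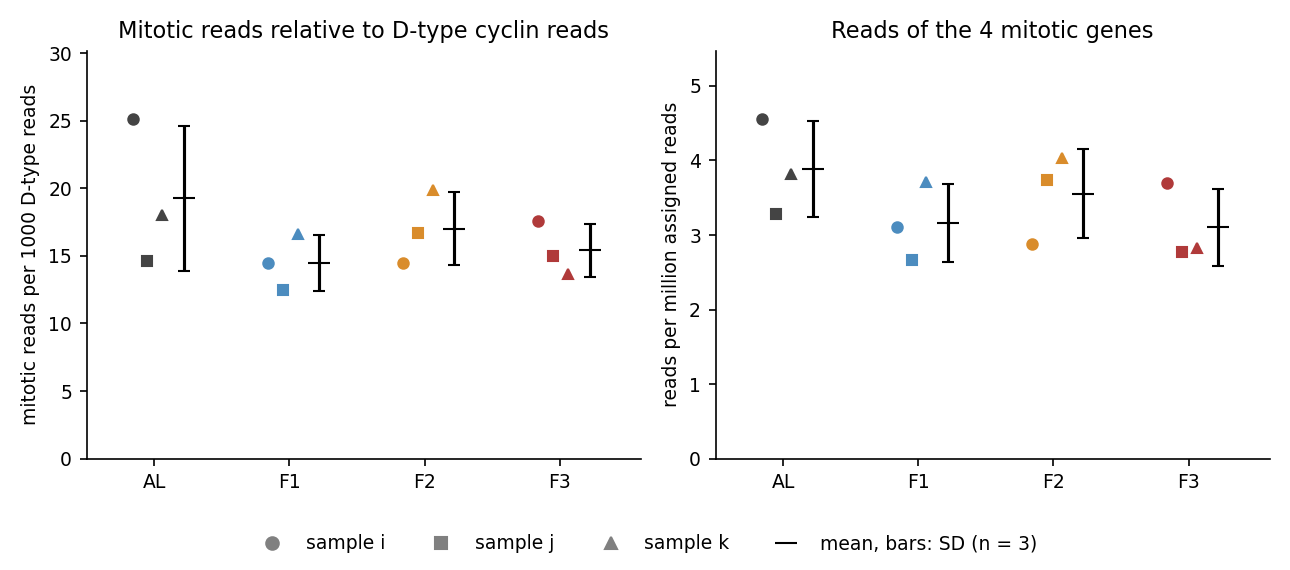
Left, reads of the 4 mitotic genes per 1000 reads of the 3 D-type cyclins; right, reads of the 4 mitotic genes per 1000000 assigned reads (y axes, linear from 0), for each sample by group, with the mean ± SD (n = 3). AL sample i is the highest in both panels, at 25.1 and 4.56, and the groups overlap.

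Mitotic genes were set against D-type cyclins within each sample. There were 25.1, 14.6 and 18.0 mitotic reads per 1000 D-type reads in AL samples i, j and k, 14.5, 12.5 and 16.6 in F1, 14.5, 16.7 and 19.9 in F2, and 17.6, 15.0 and 13.7 in F3. The group means were 19.3 ± 5.36 in AL, 14.5 ± 2.07 in F1, 17.0 ± 2.73 in F2 and 15.4 ± 1.97 in F3 (SD, n = 3), and every fasted group overlapped AL. The order of the means turned with Ccnd3 left out of the D-type sum, to 262.0 ± 19.3 in AL, 265.9 ± 16.8 in F1, 288.8 ± 46.4 in F2 and 309.7 ± 60.3 in F3 (SD, n = 3), where the fasted groups again overlapped AL. AL sample i, the highest with all 3 cyclins, had the most mitotic reads (113). D-type reads per 1000000 assigned reads were 205.6 ± 21.8 in AL and 200.9 ± 13.9 in F3, and mitotic reads were 3.88 ± 0.645 and 3.10 ± 0.516 per 1000000 (SD, n = 3). As Ccnd3 dominates the sum, the ratio does not follow Ccnd1 or Ccnd2.

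The other cell cycle genes came from 6 lists, of which most listed genes had no identifier here. Of 18 other cyclins 5 were tested, and 1 was called, in F3 against F2, where 5.88% of all features were. Ccng1, which encodes cyclin G1, a target of p53, was higher in F3 (572, 469 and 437 reads) than in F2 (370, 302 and 394), with an LFC of 0.43, an SE of 0.12 and an adjusted p of 0.0484 by edgeR. This call was lost when any 1 sample other than AL sample k or F2 sample k was left out, with edgeR adjusted p-values of up to 0.197, and also with DESeq2 size factors, upper-quartile scaling, only the 6 samples compared or the sample letter as a block (0.0570). Ccne1 and Ccne2, the E-type cyclins that act with CDK2 at the start of S phase, had 1 to 10 and 20 to 48 reads per sample and passed in no comparison.

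Of 31 other mitotic genes 7 were tested, and 1 was called, in F1 and F3 against AL, beside 6.57% and 12% of all features. Aurkb, which encodes the Aurora B kinase of the chromosomal passenger complex, had 4, 3 and 1 reads in AL, 9, 8 and 8 in F1, 10, 6 and 7 in F2, and 10, 10 and 8 in F3. All fasted samples were above all AL samples. The LFC was 1.63 (SE 0.47, edgeR adjusted p = 0.0405) in F1 and 1.72 (SE 0.46, edgeR adjusted p = 0.0186) in F3 against AL, and 1.48 (SE 0.47, edgeR adjusted p = 0.173) in F2. The summed reads were 8 in AL, 25 in F1 and 28 in F3, and with library sizes taken into account the ratio to AL was 3.19 in F1 (95% interval 1.395 to 8.19) and 3.38 in F3 (1.501 to 8.58), where the exact intervals cover counting error only. DESeq2 gave no adjusted p for Aurkb, and filters of 10 reads and filterByExpr removed it. With no filter, both calls were lost (0.111 in F1 and 0.0593 in F3 by edgeR), and with only the 6 samples compared the one in F1 was (0.0767). In F1 the call was lost without any 1 of the samples other than F2 samples i and j (edgeR adjusted p-values of up to 0.166), and in F3 without AL sample k (0.0887), F3 sample i (0.0607) or F3 sample j (0.0531). Birc5, which acts in the same complex, had no such pattern. Bub1, Bub3, Bora, Aspm, Arhgap11a and Aurkc passed in no comparison.

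Of 15 subunits of the anaphase-promoting complex, the ubiquitin ligase that has cyclin B destroyed at the end of mitosis, 10 were tested and 3 were called. These were 2 of the 10 in F1 and 3 in F3 against AL, beside 6.57% and 12% of all features. Anapc1, the large scaffold subunit, had 2737, 2297 and 2251 reads in AL, 1900, 1635 and 1698 in F1, 2340, 1767 and 2293 in F2, and 1881, 1960 and 1802 in F3. It fell in F1 (LFC -0.45, SE 0.10, edgeR adjusted p = 0.0204) and in F3 (LFC -0.42, SE 0.10, edgeR adjusted p = 0.0170) against AL. Anapc2, the cullin subunit, rose in F1 from 2189 ± 80.7 to 2538 ± 79.4 normalized read counts (SD, n = 3; LFC 0.21, SE 0.06, edgeR adjusted p = 0.0484) and in F3 to 2580 ± 32.6 (LFC 0.24, SE 0.06, edgeR adjusted p = 0.0192). Anapc16, a small subunit, rose in F3 from 634.7 ± 2.41 to 813.6 ± 64.3 normalized read counts (SD, n = 3; LFC 0.36, SE 0.08, edgeR adjusted p = 0.0102).

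These 3 subunits thus moved in opposite directions, and the median LFC of the 10 was -0.03 in F1 and -0.04 in F3, against -0.00431 and -0.00527 over all features. The Anapc16 call held without each sample in turn. The Anapc1 calls were lost without AL sample i, AL sample k, and F1 sample j or k in F1 or F3 sample i or k in F3 (edgeR adjusted p-values of up to 0.0962). The Anapc2 call in F1 was lost without any 1 sample other than F2 sample j, and with scaling by total reads or by the upper quartile, no filter, only the 6 samples compared or the sample letter as a block (edgeR adjusted p-values of up to 0.197). The one in F3 was lost without AL sample i or j or any F3 sample, with scaling by total reads and with no filter (edgeR adjusted p-values of up to 0.0747).

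**Figure D4:**
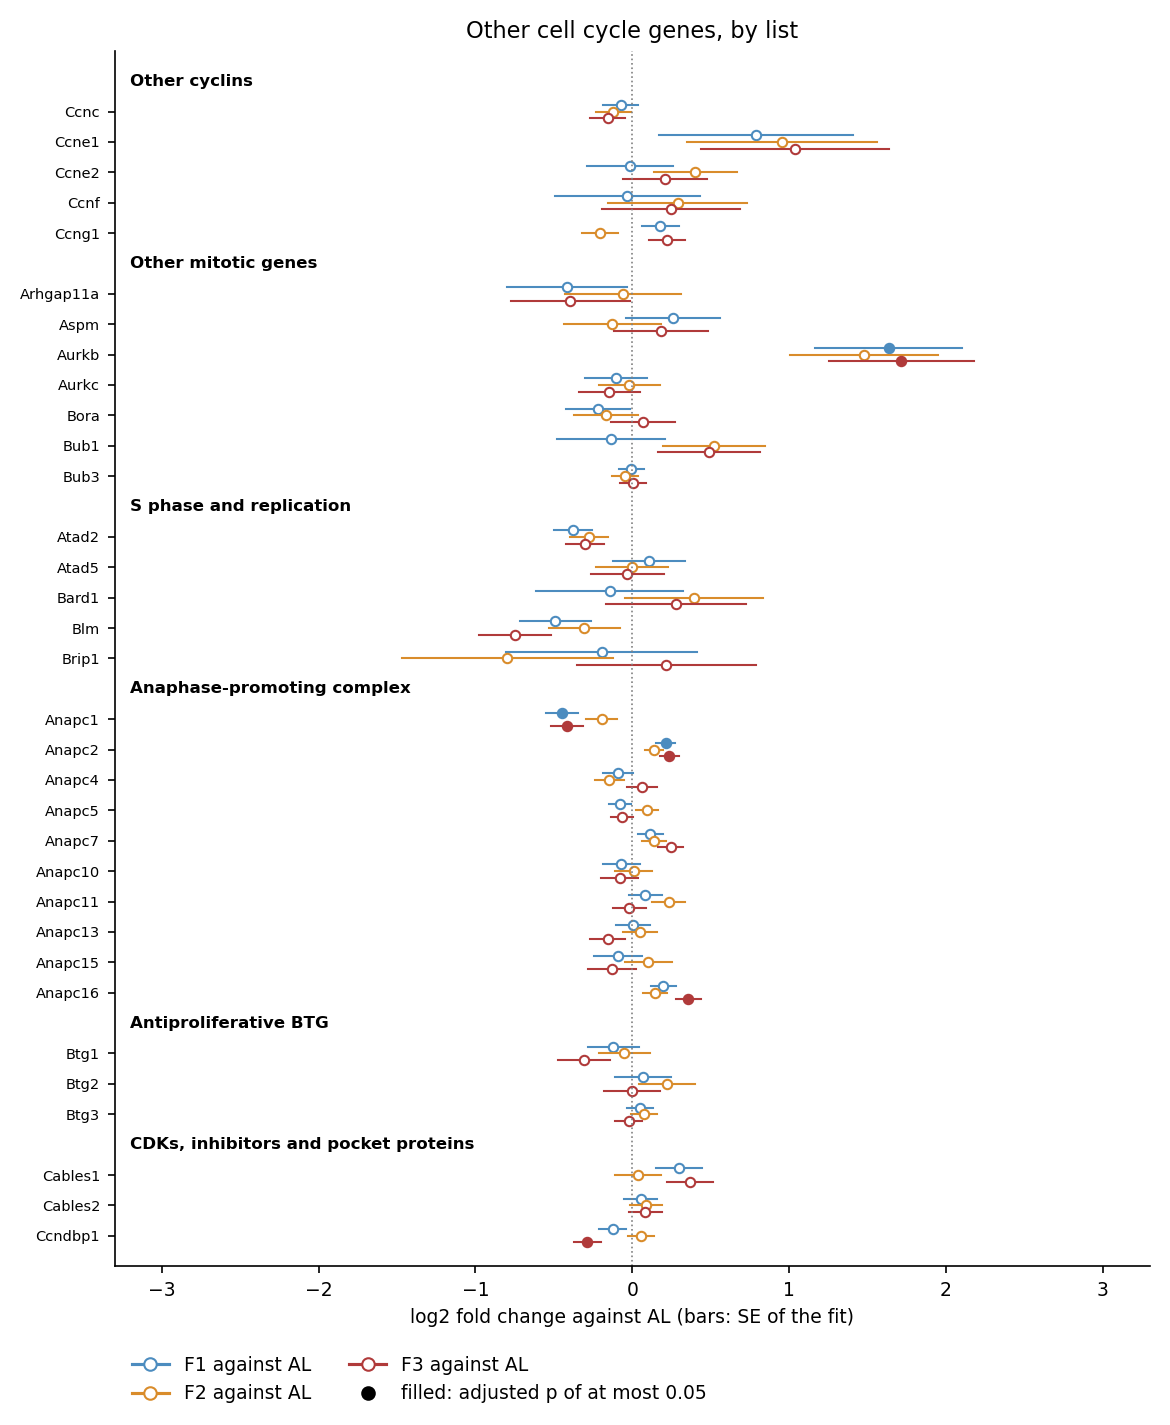
LFC against AL (x axis, log2 scale) with bars for the SE of the edgeR fit, for the 33 tested genes of 6 other cell cycle lists (y axis); filled points have an adjusted p of at most 0.05. Filled points are few and lie on both sides of 0, Aurkb, Anapc2 and Anapc16 above it and Anapc1 and Ccndbp1 below it.

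Of 16 CDK genes, their inhibitors and partners, 3 were tested and 1 was called, in F3 against AL and F3 against F2, beside 12% and 5.88% of all features. Ccndbp1, which encodes a protein that binds cyclin D1 and is known as an inhibitor of the cell cycle, had 614, 502 and 470 reads in AL, 536, 613 and 510 in F2, and 464, 447 and 433 in F3. It fell in F3 against AL (LFC -0.29, SE 0.09, edgeR adjusted p = 0.0442) and against F2 (LFC -0.34, SE 0.09, edgeR adjusted p = 0.0337). The first call was lost without any 1 sample other than F2 samples j and k, with upper-quartile scaling, with no filter and with the sample letter as a block (edgeR adjusted p-values of up to 0.167), and the second without F1 sample j, F2 sample i or j, or any F3 sample, with only the 6 samples compared and with that block (edgeR adjusted p-values of up to 0.126). Of 19 genes of S phase and replication 5 were tested and none was called by edgeR in any comparison, with 1, 1 and 2 of the 5 at an unadjusted p under 0.05 in F1, F2 and F3 against AL, beside 20.8%, 13% and 26% of all features. The 2 with the most reads were Atad2, a chromatin ATPase, with 577.0 ± 46.1 normalized read counts in AL and 469.3 ± 36.1 in F3, and Blm, the helicase of Bloom syndrome, with 77.7 ± 12.6 and 46.3 ± 8.41 (SD, n = 3; edgeR adjusted p = 0.131 and 0.0516).

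The 3 antiproliferative BTG genes were all tested, and none was called by edgeR or had an unadjusted p under 0.05 in any comparison. Btg2, which is induced by p53 and as an immediate early gene, had 62320, 41507 and 27133 reads in AL. This was more than any cyclin with an identifier here, though reads are not corrected for length. Its means were 43043 ± 13653 normalized read counts in AL and 42979 ± 3176 in F3 (SD, n = 3), so that the AL samples alone spanned the levels of the fasted groups. Btg3 had 2100 ± 200 in AL and 2068 ± 142 in F3 (SD, n = 3).

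The genes whose pattern was most like that of each D-type cyclin were sought among 1263 genes with a symbol and a mean of at least 100 normalized read counts, by Pearson's r of log2 normalized read counts over the 12 samples. For Ccnd1 they were Slc29a3 (r = 0.917), Capn5 (0.869) and Aig1 (0.867). For Ccnd2 they included a clone-named gene AABR07028488.1 (0.884) and Arid1a (0.878), and for Ccnd3 they were Atp13a1 (0.835), Slc27a1 (0.803) and Angpt2 (0.784). With the group means removed, r was 0.716 for Slc29a3, 0.875 for Arid1a and 0.777 for Atp13a1. The points share libraries and their scaling, and the values describe these 12 samples.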

How the data were processed

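RNA of CECs of 12 samples was sequenced from stranded polyA libraries, with 4 technical replicates each. The authors demultiplexed the reads with bcl2fastq 2.18.0.12, aligned them with STAR to Ensembl version 91 (Rnor_6.0), discarded multi-mapped reads and counted the rest with HTSeq 0.5.3; the deposited values are raw counts per gene. The strand setting of the counting is not given in the sources used here, so reads of overlapping antisense genes cannot be told apart, and genes with a close copy lose reads.

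Technical replicates were summed. Technical replicate d of F1 sample k is labelled F1 in its title and 2 days in its treatment, was kept in F1, and was left out in an alternative. Genes with at least 1 read in each sample were tested in R 4.3.3 with edgeR 4.0.16 (TMM, quasi-likelihood test, 4 group means in 1 model), comparing each fasted group with AL and with the group fasted 1 day less, and the 4 groups jointly. P-values were adjusted by Benjamini-Hochberg over all features tested, with a threshold of 0.05. The edgeR comparisons of F1, F2 and F3 with AL were tried on simulated data, and the other tests were not. Intervals are at 95%. Fasted groups share the AL samples. Each isolation used 4 rats, so p-values measure the spread between isolations. Alternatives were other scalings, filters, DESeq2 1.42.0, only the samples compared, a block, a threshold of 0.01 and leaving out each sample.

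The genes and lists were chosen with earlier results of these data known. All genes with an identifier were named. Of the other lists, genes past the threshold were named, or the 2 with the highest mean where there were none. A few others that passed in no comparison were named after their values were seen. Symbols were paired with 2043 features, from supplementary tables that the copy used here holds in shortened form, with few exceptions up to Ccng1 in alphabetical order, so that many cell cycle genes were not analysed here. The names Ccnb2, Bub1b and Anln come before Ccng1 in that order. The study's list keeps only genes with a read in each sample, and why these genes had no identifier was not tested. A result for 1 gene is not reported here.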

Additional observations from a re-analysis of the deposited data

How the results depend on the processing

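Of the comparisons of the 7 genes, the number called in F3 against AL (1) was 0 at an adjusted p of at most 0.01 and ranged from 0 to 2 when 1 sample was left out (2 without F2 sample j). In the joint test (0) it was 1 by DESeq2 and ranged from 0 to 1 when 1 sample was left out (1 without F1 sample k). The Ccnd1 call in F3 held under every other scaling, filter and tool tried. Over all 23 settings, which include those with 1 sample left out where the call was lost, the LFC ran from -0.66 to -0.49. The adjusted p ran from 0.00641 (DESeq2) to 0.102 (edgeR without F3 sample i). The numbers of all features called ranged from 254 to 1468 in F1, 0 to 359 in F2 and 675 to 2378 in F3 against AL, 0 to 616 in F2 against F1, 130 to 1228 in F3 against F2 and 454 to 2090 jointly.

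Directions turned only in values that passed no threshold. Leaving out 1 sample moved the LFC from -0.049 to 0.68 for Ccna2 and from -0.40 to 0.027 for Ccnb1 in F1 against AL. It moved from -0.029 to 0.17 for Ccnd3 and from -0.12 to 0.15 for Aurka in F2 against AL, and Aurka was at 0.0018 with upper-quartile scaling. In F3 against AL it moved from -0.062 to 0.14 for Ccnd3, -0.41 to 0.32 for Ccna2, -0.27 to 0.16 for Ccnb1 and -0.33 to 0.25 for Birc5. In F2 against F1 it moved from -0.024 to 0.25 for Ccnd1, -0.16 to 0.13 for Ccnd2, -0.37 to 0.39 for Ccna2 and -0.31 to 0.53 for Birc5, and in F3 against F2 from -0.073 to 0.027 for Ccnd3 and -0.73 to 0.010 for Ccna2. The cause was not tested.

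The level of Ccnd3 in F1 was 4895 counts when scaled by total reads. Without Ccnb1 there were 11.3, 14.1 and 11.6 mitotic reads per 1000 D-type reads in F1, F2 and F3, and with Ccnd3 left out of the D-type cyclins 262.0, 265.9, 288.8 and 309.7 in AL, F1, F2 and F3, which turns the order of the means against AL. A filter of 10 reads and edgeR's filterByExpr removed Ccna2 and Birc5. Deviations from the group means correlated at -0.012 to 0.13 between samples of the same letter. Samples of different letters were not compared in this way, so these values do not show whether the letters pair the samples. With the letter as a replicate block, 1 of the 7 genes was called in F3 against AL (Ccnd1, LFC -0.58, adjusted p = 0.0278 by edgeR) and the block ended the calls of Ccng1 (adjusted p = 0.0570) and Ccndbp1 (0.0525) in F3 against F2, Ccndbp1 in F3 against AL (0.0658) and Anapc2 in F1 against AL (0.0701), all by edgeR. It called 102 features in place of 175 in F2 against F1. Depth limits Ccna2 and Birc5 most. The joint test could not be run on only the samples of 2 groups.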
